A study of Mus musculus with 2 samples.

Results

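The 32 genes described here are p53, its regulators and targets, and the kinases and chromatin proteins of the DNA damage response. They were taken by name from a fixed list, chosen with earlier results of these data known. All 32 matched at least 1 probe through the RefSeq accession in the scanner files, among 20651 genes matched in all. The list gave 40 probes, 36 of them well above background on both arrays, and 31 members had such a probe. Brca1 was the exception.

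Each of the 2 genotypes had 1 array of total RNA, from cultures labelled as T helper 9 (TH9) cells, the CD4 T cells named for their interleukin 9. Naive CD4 T cells of mouse spleen and lymph node were activated through CD3 and CD28, each antibody at 2 µg/ml, with human IL-2 at 100 U/ml. IL-4 at 10 ng/ml and TGFβ1 at 2 ng/ml drove them towards TH9 until day 5, as the sample descriptions give it. The wild-type array carried RNA of mice named only as such. The other carried RNA of SIRT1flox/flox-CD4-Cre mice, in which Cre recombinase is driven by Cd4 and so acts in T cells, and is called the knockout-labelled array. Ages, sexes, strains and the number of mice behind each culture are not given in the sources used here. With 1 array per genotype there was no spread between samples, no test of genotype, and no p-value. The errors given are those that the scanner software attached to each signal. For bright probes they were in proportion to the signal, as for Sesn2 with 180 at 1800 and 51.3 at 513. They measure no spread between samples.

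p53, encoded by Trp53, is a transcription factor that MDM2 keeps scarce in unstressed cells. DNA breaks and stalled replication forks activate the kinases ATM and ATR, which act through CHK2 and CHK1, stabilise p53 and turn on genes of arrest, repair and cell death. SIRT1 is a deacetylase with p53 among its known substrates. T cells divide fast after activation and depend on this pathway to survive replication stress.

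Before the members, 3 measured facts bear on every comparison. The Sirt1 probe read 3240 on the wild-type and 2920 on the knockout-labelled array, a difference of -0.08 ± 0.20 (knockout-labelled minus wild-type, log2, scanner error), and with no position given for it relative to the floxed exons, it checks nothing about the label. Neither array had Il9 well above background, at 5.48 and 7.36. Markers of other cells were present throughout: all 12 B cell markers and all 13 matched macrophage and dendritic cell markers were well above background on both arrays. The sums given here and below are of processed signals not scaled between the arrays. Summed over the list, B cell marker signal was 139156 for wild type and 116007 for the knockout-labelled array (88756 and 80107 without Ms4a1). T cell marker signal was 100470 and 106440. So each value is that of a mixed RNA, in which fewer cells of a type and less RNA per cell cannot be told apart.

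Letters of the p53 binding motif can be read in the promoters of some of these genes. RefSeq's promoter table for GRCm38.p6 holds windows of 250 bases before to 50 after a gene's start for 25 of the 32 members. The letters of the p53 half-site, a palindrome of 10 bases that p53 binds as a pair, were searched on both strands. They occurred in the windows of 10 of the 25 members (40.0%) and of 2582 of 27025 genes (9.55%). A pair with at most 13 bases between was found in 20 genes (0.0740%), and Cdkn1a was the one member among them. Its upstream start carried them at chr17:29090729-29090978 on the plus strand. The 250 bases before that start are printed here because Cdkn1a was the member with the highest difference. Capitals mark the half-sites that match in every letter, 12 bases apart. The 10 bases straight after the second depart from the half-site letters in their first base alone, and so were neither counted nor capitalised. Which of these stretches p53 binds as a pair was not tested.

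Cdkn1a: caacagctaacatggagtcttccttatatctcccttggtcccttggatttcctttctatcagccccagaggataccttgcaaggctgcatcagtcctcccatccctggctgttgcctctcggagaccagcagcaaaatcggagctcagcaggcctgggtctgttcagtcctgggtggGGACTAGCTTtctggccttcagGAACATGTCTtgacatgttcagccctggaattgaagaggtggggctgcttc

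Single half-sites are shown, each in 30 bases read along the gene's own strand, for 6 members whose signals differed in unlike ways. Those of Trp53 (chr11:69580274-69580303, plus strand) and Ei24 (chr9:36797325-36797354, minus) belong to genes lower on the knockout-labelled array, and those of Mdm2 (chr10:117710925-117710954, minus) and Sesn1 (chr10:41887256-41887285, plus) to genes somewhat higher. Those of Gadd45a (chr6:67037428-67037457, minus) and Ccng1 (chr11:40755452-40755481, minus) belong to genes whose arrays differed within scanner error.
Trp53: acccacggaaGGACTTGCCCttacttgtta
Ei24: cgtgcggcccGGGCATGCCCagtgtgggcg
Mdm2: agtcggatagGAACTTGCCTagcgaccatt
Sesn1: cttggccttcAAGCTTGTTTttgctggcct
Gadd45a: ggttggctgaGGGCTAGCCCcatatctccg
Ccng1: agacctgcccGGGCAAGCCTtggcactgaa

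Members with and without these letters in the window were each split evenly. Of the 10 members with a half-site, 5 were higher and 5 lower on the knockout-labelled array, with a median of 0.03. Of the 14 measured members whose window held none, 7 were higher and 7 lower, with a median of -0.02. These counts include members within their scanner error, such as Gadd45a and Ccng1. Half-sites outside the window were not searched, so the split cannot tell whether p53 sites go with a direction. A match describes the letters of the window and shows no binding.

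As a whole the members were split evenly. Of the 31 measured, 16 were higher and 15 lower on the knockout-labelled array, and in 12 the difference was smaller than the scanner error. Their median difference was 0.02, beside 0.003 over all 12958 genes measured the same way. The split moved with the processing: after centring each array on its median 21 were higher and 10 lower, and with normexp, a correction that models each array's background and here adds 50 to every signal, 10 were higher and 21 lower. Normexp turned the sign of 10 members, 4 of which had differed by more than their scanner error (Cdkn1a, Dram1, Perp and Plk2). Without 4 wild-type spots of high local background, normexp gave 15 higher and 16 lower. At least 2-fold higher was 1 member, Cdkn1a, where 3.95% of all genes were that much higher, and at least 2-fold lower were 4 members (12.9%), Sesn2, Ei24, Trp53 and Chek1, where 3.63% of all genes were. At 1.5-fold the counts were 3 higher (11.0% of all genes) and 6 lower (12.0%), adding Phlda3, Dram1, H2afx and Rrm2b. Past 3-fold stood Sesn2 alone, lower, where 0.864% of all genes were that much lower and 0.656% higher.

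**Figure D1:**
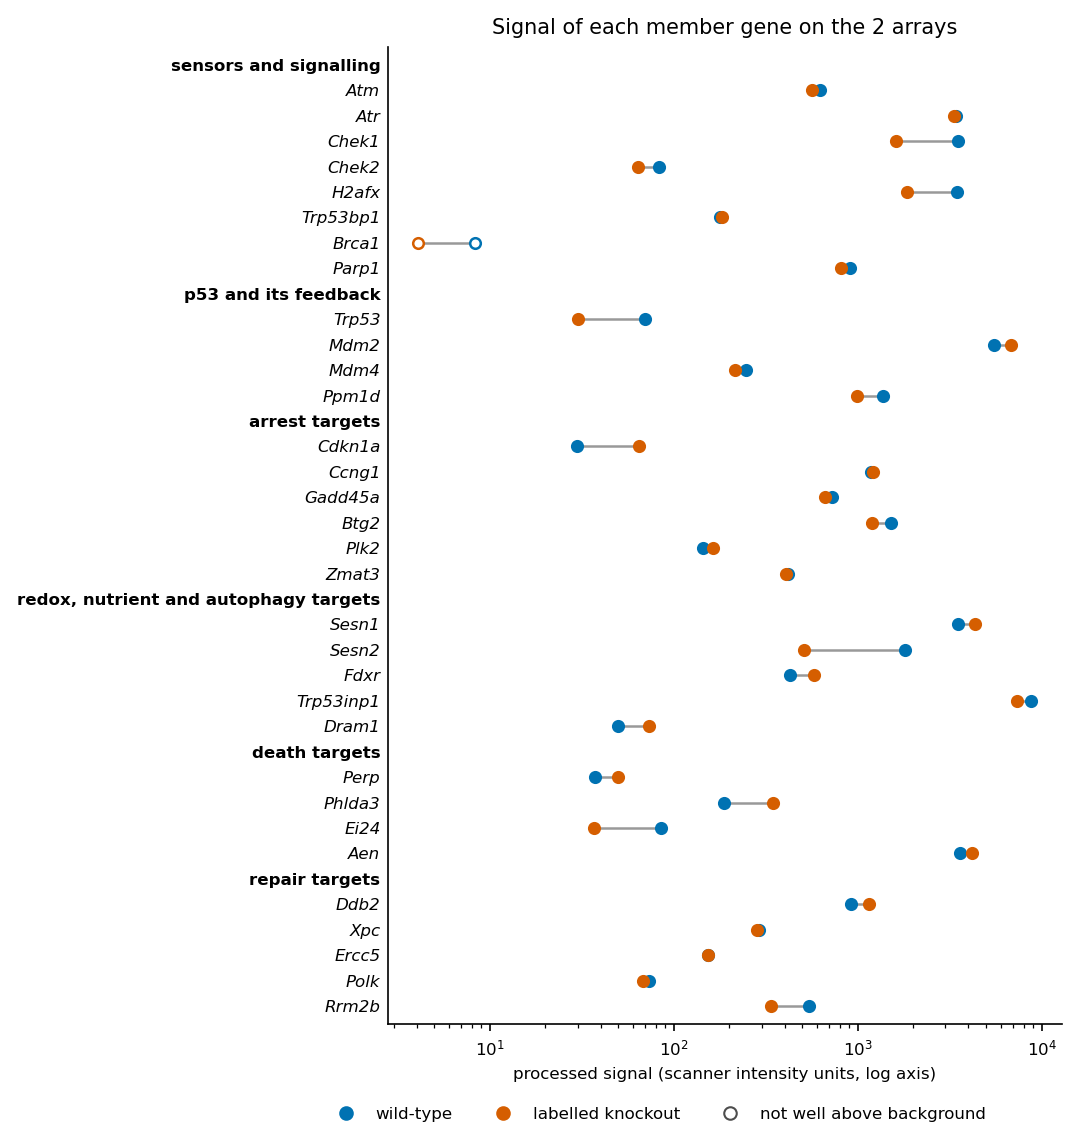
Processed signal (scanner units, log axis) of each member's brightest probe on the wild-type array (blue) and the knockout-labelled array (orange), grouped by role; open circles mark signals not well above background. The longest line among the filled points is that of Sesn2, from 1800 to 513.

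Differences of 2-fold were more frequent among dim genes. Of the 7 members with a mean signal under 100 on the arrays, 3 differed by at least 2-fold in either direction (Cdkn1a, Trp53 and Ei24), as did 15.6% of all such dim genes. Of the 24 brighter members, 2 did (Sesn2 and Chek1), as did 5.34% of all brighter genes. Probes spotted 10 times on each array show how spots of 1 RNA spread: the median SD over the spots of a probe on the wild-type array was 0.13 (log2) for signals under 100, 0.039 from 100 to 1000 and 0.027 above 1000.

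Of the 7 measured sensor and signalling genes, 5 were lower on the knockout-labelled array and 2 slightly higher, with a median of -0.10. After centring on the median 3 were lower and 4 higher. Chek1, the checkpoint kinase that answers ATR when replication stalls, read 3520 on the wild-type and 1620 on the knockout-labelled array. It was 2.08-fold lower, a difference of -1.05 ± 0.20. H2afx, the histone variant that is phosphorylated around DNA breaks, read 3480 and 1850 and was 1.80-fold lower (-0.85 ± 0.20), just inside 2-fold. These were both bright probes, where the scanner error is in proportion to the signal and measures no spread between samples.

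The apical kinases did not share that difference. Atr, which senses single-stranded DNA at stalled forks, read 3440 and 3340, a difference of 0.02 ± 0.20. Atm, which senses double-strand breaks, read 622 and 567 by its brighter probe (-0.07 ± 0.20). A second Atm probe, spotted 10 times, averaged 121 for wild type and 83.3 for the knockout-labelled array, a difference of -0.47 ± 0.22. So the pair of Atm probes gave unlike values.

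Chek2, the kinase downstream of ATM, was dim at 83.2 and 63.7 (-0.32 ± 0.23). Parp1, which marks strand breaks with poly(ADP-ribose) and consumes NAD as SIRT1 does, read 913 and 813 (-0.10 ± 0.20). Trp53bp1, which steers breaks towards end joining, read 179 and 182 by its brighter probe (0.09 ± 0.21) and 56.9 and 39.0 by the other (-0.48 ± 0.25), so its probes differed in sign. Brca1, a recombination factor, read 8.34 and 4.09, too close to background on both arrays for a fold.

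Chek1 and H2afx are also genes of cycling cells, and proliferation genes were lower on the same array. Of 25 proliferation genes, all measured, 24 were lower and 1 higher, 2 of them at least 2-fold lower (Top2a, a topoisomerase of dividing cells, 2.83-fold, and Ccnb1, cyclin B1, 2.38-fold, with -0.84 and -0.68 by its other probes), and the median was -0.57. The summed signal of that list came to 70436 for wild type and 49730 for the knockout-labelled array. The part of proliferation in the Chek1 and H2afx values was not tested.

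p53 and its feedback genes came next. The Trp53 probe read 69.6 on the wild-type and 30.0 on the knockout-labelled array, 2.22-fold lower (-1.15 ± 0.25). Both signals were well below the arrays' 75th percentiles of 544 and 520, and the dimmest signals still well above background stood at 24.6 and 9.76. Mdm2, the ubiquitin ligase that p53 induces and that destroys p53, read 5480 and 6800, 1.30-fold higher (0.38 ± 0.20). So the Trp53 and Mdm2 messages differed in opposite directions.

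The other inhibitors of p53 were slightly lower. Mdm4, the partner of MDM2, read 248 and 214 (-0.15 ± 0.21), and its dimmer probe read 85.2 and 49.6 (-0.72 ± 0.23). Ppm1d, the phosphatase WIP1 that ends p53 and ATM signalling, read 1370 and 997 (-0.39 ± 0.20). None of these reached 2-fold, and 3 of the 4 genes in this group were lower (2 after centring on the median).

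**Figure D2:**
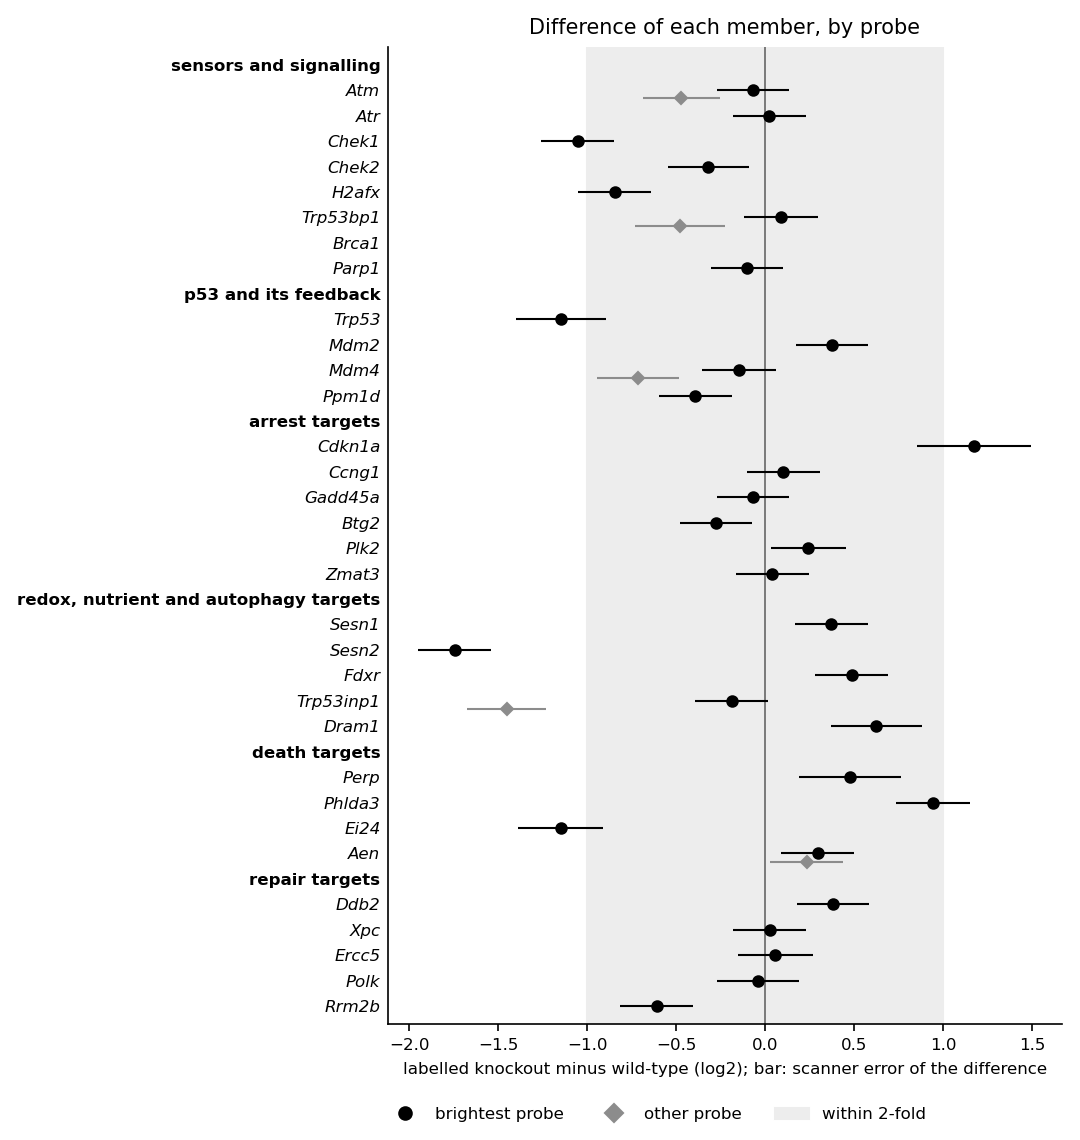
Difference of each member, knockout-labelled minus wild-type (log2), for the brightest probe (black) and any other probe well above background on both arrays (grey diamonds), with the scanner error as bars and 2-fold shaded. Cdkn1a lies above the shaded band and Chek1, Trp53, Sesn2 and Ei24 below it, and the second Trp53inp1 probe lies at -1.45.

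Among the 6 targets that act on the cell cycle, Cdkn1a had the difference furthest from 0, and that difference depended on the background correction. It encodes p21, the inhibitor of cyclin-dependent kinases and the textbook readout of p53. Its probe, spotted 10 times, had a mean of 29.9 on the wild-type and 64.4 on the knockout-labelled array, 2.26-fold higher (1.17 ± 0.32). With normexp the direction turned (-0.50), and without the 4 spots of high local background it was 0.49, inside 2-fold. Over the 9 spots per array without an outlier flag, the wild-type signal ran from 25.5 through a median of 28.7 to 40.7, and the other from 62.0 through 64.9 to 67.5. The spots of the arrays did not overlap, which was so for 66.9% of the 236 measured probes of this kind.

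The spots of Cdkn1a with such a flag read 57.8 (wild type) and 62.3 (knockout-labelled), so the first lay far above its fellows and still below every spot of the knockout-labelled array. With those spots kept the difference was 1.08. A second Cdkn1a probe, for the other transcript, was not well above background, at 4.97 and 6.84. The spots of an array share 1 RNA sample and are no replicates of a genotype.

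**Figure D3:**
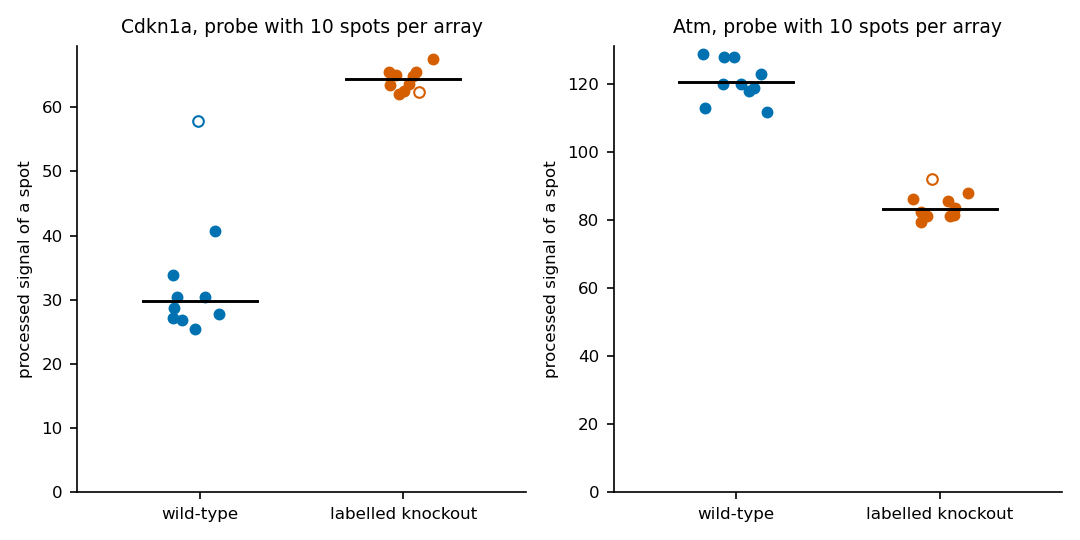
Processed signal of every spot of the Cdkn1a and Atm probes that were printed 10 times on each array (linear axis from 0); filled circles were used, open circles carried an outlier flag, and the bar is the geometric mean of the filled ones. The Cdkn1a spots lie between 25.5 and 57.8 for wild type and between 62.0 and 67.5 for the knockout-labelled array, and the Atm spots between 112 and 129 against 79.6 to 92.2.

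The other arrest targets differed little. Gadd45a, a stress protein of growth arrest, read 727 and 663 (-0.07 ± 0.20). Ccng1, cyclin G1, read 1180 and 1210 (0.10 ± 0.20). Zmat3, an RNA-binding protein induced by p53, read 416 and 409 (0.04 ± 0.20). All 3 lay within their scanner error. Btg2, an antiproliferative gene, read 1520 and 1200 (-0.28 ± 0.20), and Plk2, a polo-like kinase, read 145 and 164 (0.24 ± 0.21), which turned to -0.23 with normexp.

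The 2 sestrins differed in opposite directions. Sestrins restrain mTOR complex 1 when amino acids or redox balance fail, and Sesn2 is induced by the amino acid stress factor ATF4 as well as by p53. Sesn2 read 1800 on the wild-type and 513 on the knockout-labelled array, 3.35-fold lower (-1.75 ± 0.20), the difference furthest from 0 among the members. Sesn1, the other p53-induced sestrin, read 3500 and 4330, 1.29-fold higher (0.37 ± 0.20).

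The remaining genes of that group were within 2-fold by their brightest probe. Fdxr, the mitochondrial ferredoxin reductase, read 431 and 577 (0.49 ± 0.20). Dram1, a lysosomal protein of p53-driven autophagy, was dim, at 49.5 and 72.9 (0.62 ± 0.26). With normexp Dram1 turned to -0.52, and without the 4 spots it was 0.28. Trp53inp1, a stress protein that works with p53 and in autophagy, read 8790 and 7370 by its brighter probe (-0.19 ± 0.20) and 139 and 48.5 by the other, which was 2.74-fold lower (-1.45 ± 0.22). With the mean over probes the Trp53inp1 difference was -0.82, so which probe is read decides its value.

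Of the 4 death targets, 3 were higher and 1 lower, and with normexp 2 were higher and 2 lower. Phlda3, which blocks AKT at the membrane, read 188 on the wild-type and 346 on the knockout-labelled array, 1.93-fold higher (0.95 ± 0.21), the highest member inside 2-fold. It passed 2-fold after centring on the median (1.13), with quantile normalization, with loess and in the authors' deposited value table, and was 0.43 with normexp and 0.77 without the 4 spots. Ei24, an apoptosis-associated protein of the endoplasmic reticulum, was dim, at 85.7 and 36.9, and 2.22-fold lower (-1.15 ± 0.24). Perp, a membrane protein of p53-dependent death, read 37.3 and 49.6 (0.48 ± 0.29), with -0.74 by normexp and 0.21 without the 4 spots. Aen, a nuclease, read 3580 and 4200 (0.30 ± 0.20), with 2850 and 3200 by its other probe (0.23).

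None of the 5 repair targets reached 2-fold, and their median was 0.02 (-0.34 with normexp). Ddb2, which finds ultraviolet lesions, read 924 and 1150 (0.38 ± 0.20). Xpc, its partner in lesion recognition, read 291 and 283, and Ercc5, the nuclease XPG, read 154 and 153. Polk, a translesion polymerase, read 73.4 and 68.2, so all 3 lay within their scanner error. Rrm2b, the p53-induced subunit of ribonucleotide reductase that supplies nucleotides for repair, read 541 and 339, 1.53-fold lower (-0.61 ± 0.20).

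By role, the 20 target genes had 13 members higher and 7 lower with a median of 0.08, and the 12 sensors, p53 and feedback genes had 3 higher and 8 lower among 11 measured, with a median of -0.15. With normexp 8 targets were higher and 12 lower, and after centring on the median 6 of the 11 others were higher and 5 lower. The 2 groups were drawn up with earlier results known, and their difference was not tested.

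Further genes of the pathway were read from lists of the same kind. Among 11 measured death genes of p53, 7 were higher and 4 lower, none by 2-fold, and the median was 0.20. Bbc3, the BH3-only killer PUMA, read 892 and 1700, 1.99-fold higher, and Steap3, a ferrireductase, read 54.4 and 95.2 (0.87 ± 0.25, and 0.33 by its other probe). Steap3 turned to -0.43 with normexp and was 0.37 without the 4 spots. Of 13 other measured targets, 6 were higher and 7 lower, and 1 was past 2-fold: Sulf2, a heparan sulfatase, read 102 and 297, 3.05-fold higher (1.61 ± 0.22), and stood at 0.66 with normexp.

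Regulators of p53 were mostly a little higher in the main scaling. Of 20, all measured, 14 were higher and 6 lower, with a median of 0.16, and 8 lay within their scanner error. With the mean over probes 12 were higher and 8 lower, and the median was 0.03, against 0.35 with normexp. The 1 past 2-fold was Cdkn2a, the locus of p16 and of ARF, which frees p53 from MDM2. It read 356 on the wild-type and 1070 on the knockout-labelled array, 3.14-fold higher (1.65 ± 0.21), and its probe was not assigned to either product here.

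Repair genes outside the members were more often lower in the main scaling. Of 22 measured genes of homologous recombination and the Fanconi pathway, 14 were lower and 8 higher with a median of -0.27, and Brip1, a helicase partner of BRCA1, was 2.18-fold lower at dim signals of 44.6 and 19.6. Of 10 end joining genes, 8 were lower (median -0.13), with Paxx at -0.60 and Dclre1c, the nuclease Artemis, at -0.46, where other Dclre1c probes gave -0.67, -0.21 and -0.07. Of 24 base excision and mismatch repair genes, 17 were lower (median -0.16), and Neil1, a DNA glycosylase, was 2.62-fold lower, from 109 to 39.7. Each of these lists had at most 1 gene past 2-fold. Centring on the median raised every gene alike, and the median of all genes from 0.003 to 0.19, so fewer lay below 0. Then 12 of the 22 recombination genes, 5 of the 10 end joining genes and 11 of the 24 excision and mismatch repair genes were lower. Set against the median of all genes, these lists did not move.

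Nucleotide excision repair had 9 of 17 measured genes lower and a median of -0.05. Gtf2h3, a subunit of the repair and transcription factor TFIIH, was 2.10-fold lower, at 207 and 94.0. Translesion synthesis had 8 of 12 lower (median -0.21), and 6 of 12 with normexp. Rad18, a ubiquitin ligase of damage tolerance, was at -0.82 and Rev3l, a catalytic subunit of polymerase zeta, at -0.57. Checkpoint signalling genes were even, 9 of 17 lower with a median of -0.01, Wee1, a kinase that holds back mitosis, at -0.97 and Clspn, the CHK1 adaptor claspin, at -0.62. Several of these repair and checkpoint genes peak in cycling cells, and the proliferation values above stand beside them. The part of proliferation in the repair and checkpoint values was not tested.

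**Figure D4:**
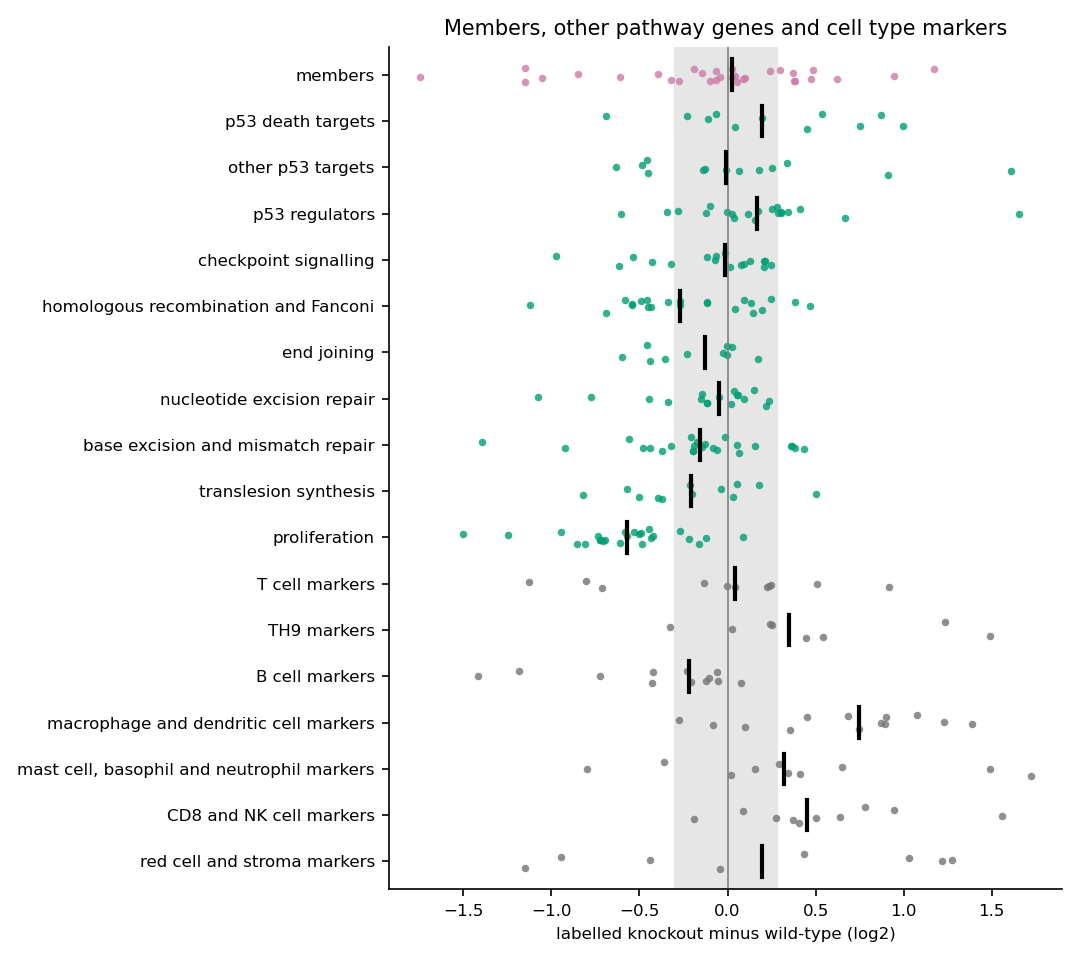
Difference of every gene well above background on both arrays (points) in the members (pink), further pathway lists (green) and cell type marker lists (grey), with each list's median as a bar and the range between the quartiles of all genes shaded. The proliferation median of -0.57 and the macrophage and dendritic cell median of 0.75 lie outside the shaded range. So do those of CD8 and NK cell (0.45), TH9 (0.35) and mast cell, basophil and neutrophil (0.32) markers. The members' median of 0.02 lies inside it.

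Other cells' markers differed between the arrays as well. Of 13 measured macrophage and dendritic cell markers, 11 were higher on the knockout-labelled array with a median of 0.75, and 3 of them by 2-fold, led by Mrc1 (1.39) and Adgre1 (1.23). That median was 0.20 with normexp, where 8 of the 13 were higher, and 0.40 without the 4 spots. Of 10 CD8 and NK cell markers, 9 were higher with a median of 0.45, Klra1 at 1.56, and with normexp 6 were higher. Of 10 measured markers of mast cells, basophils and neutrophils, 8 were higher with a median of 0.32, Cpa3 at 1.72 and Fcer1a at 1.49. Fcer1a was inside 2-fold with normexp (0.03) and without the 4 spots (0.82). Of the same 10 markers, Mcpt8 (-0.80, at 74.6 and 41.0) and Elane (-0.36) were lower. Ms4a2, of the same list, read 4.98 and 2.09, too dim to be counted. B cell markers were lower in 11 of 12, with a median of -0.22, Blk at -1.41 and Cd79a at -1.18, which were inside 2-fold without the 4 spots (-0.71 and -0.89). After centring on the median 7 of the 12 B cell markers were lower, as with normexp, and the median was -0.03 and -0.09. T cell markers had a median of 0.04, 6 higher and 5 lower, with Cd3e at -1.13 (-0.86 with normexp) and Lat at 0.92. TH9 markers had one of 0.35, 7 higher and 1 lower (Irf4, -0.33), with Pparg at 1.49 and Il17rb at 1.23. With normexp Pparg and Il17rb stood at 0.37 and -0.06. With the mean over probes 5 TH9 markers were higher and 3 lower, and their median was 0.23. Red cell and stroma markers had a median of 0.20, 4 higher and 4 lower. The stroma genes Col1a2 and Pdgfrb stood at 1.28 and 1.21 (Pdgfrb 0.55 with normexp), and the red cell genes Alas2 and Slc4a1 at -1.15 and -0.94. Of the same list, Pecam1 (-0.44) and Cdh5 (-0.04, within its scanner error) were lower too, so its stroma genes did not share a direction. Summed macrophage and dendritic cell marker signal was 86586 and 87449, of which Siglech, a marker of plasmacytoid dendritic cells, gave 74900 and 67500, and without it the sum was 11686 and 19949. For CD8 and NK cell markers the sum was 20303 and 39358, and without Klra1 11513 and 14658. Their part in the member values was not tested.

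How the arrays were scaled moved the calls of members near 2-fold. Of all genes past 2-fold, 52.1% were higher on the knockout-labelled array, against 73.3% after centring on the median, 63.8% with quantile normalization, 61.3% with loess and 63.9% in the authors' deposited table. With normexp the balance turned, to 14.9% higher, and without the 4 spots it was 62.7%. Centring on the median moved the median of all genes to 0.19, and relative to it the members' median was 0.02 as before. Trp53 and Ei24 then stood at -0.96 and Chek1 at -0.87, inside 2-fold, while Sesn2 was at -1.56 and Cdkn1a at 1.36. Sesn2 was past 2-fold under each of the 9 alternatives tried.

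The Cdkn1a value depended on the background correction. Normexp alone among the 9 alternatives turned its sign. On the wild-type array 4 of 44397 spots had a local background above 100, and the background level fitted there was -125, against 11.1 on the other array. That fit raised the mean Cdkn1a median intensity of 79.8 on the wild-type array to 230.0, and that of 106 on the knockout-labelled array to 126. The brighter Aen probe went from 3599 to 3751 on the wild-type and from 4243.5 to 4264 on the knockout-labelled array. So the fit on all spots lifted the wild-type signals more, which weighs most on dim genes. Without the 4 spots the fitted level was 11.4. Trp53 at -0.50, Ei24 at -0.46 and Chek1 at -0.97 were then inside 2-fold, as Cdkn1a was. The repair genes Brip1 (-0.41), Neil1 (-0.65) and Gtf2h3 (-0.77) were inside 2-fold there too.

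**Figure D5:**
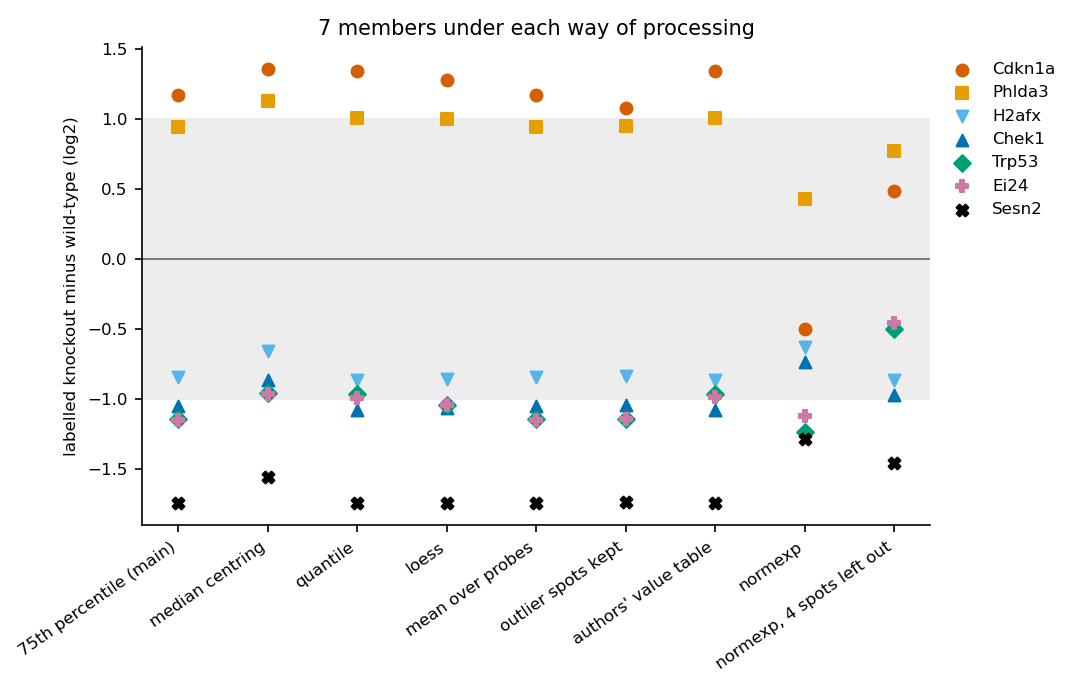
Difference (log2, knockout-labelled minus wild-type) of the 7 members furthest from 0 under the main scaling and 8 other ways of processing, with 2-fold shaded. Sesn2 stays below -1 throughout, between -1.75 and -1.29, and Cdkn1a lies below 0 with normexp on all spots and above 0 elsewhere.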

How the data were processed

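RNA of 2 cultures, 1 wild-type and 1 SIRT1flox/flox-CD4-Cre, was hybridised to 1-colour arrays of the same slide and scan. Per the file headers, Agilent Feature Extraction 11.0.1.1 made the deposited processed signal, an intensity from which it had subtracted background, and an error for each signal. The authors' deposited value table holds log2 values whose normalization and centring are not given in the sources used here.

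Here the log2 processed signal minus the array's 75th percentile was averaged over spots, leaving out those with outlier flags (228 and 138 of 43020 spots for genes, 0 saturated). Unversioned accessions named 27220 of 39411 probes in the GRCm38.p6 table. A gene was read by its brightest probe, and counted where both arrays had it well above background. A fold of 2 was the call. Each list named up to 4 genes past it, or the 2 furthest from 0, and marker lists up to 2. Some markers that went the other way were named beside these. Scripts ran in Python 3.11.15 and R 4.3.3 with limma 3.58.1, and the calls were tested on simulated data. Members and lists were chosen with earlier results of these data known. Alternatives stand in the closing section.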

Additional observations from a re-analysis of the deposited data

Results flagged for a closer look

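Gadd45a carried values outside the processed signal that differ from it by far. In the authors' deposited value table it reads 6.47 on the wild-type and 19.4 on the knockout-labelled array, a difference of 12.94 (log2), where the processed signal gives -0.07. These values lie -3.00 and 10.0 log2 units from those of probes with like signal, by a running median over probes, and among the 38 single-spot member probes no other left it by over 0.5. On the knockout-labelled array the background-subtracted signal of Gadd45a is 1641, while its processed signal is 663 and its median pixel intensity 670. The cause was not tested.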

How the results depend on the processing

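With 1 array per genotype no replicate could be left out, and depth is limited by the signal over background alone. No paired analysis was possible because each group has 1 sample and the labels number none. The count of members at least 2-fold higher was 1, and it was 2 with median centring, quantile normalization and loess, 3 in the authors' deposited table, 0 with normexp and 0 without the spots of high local background, an alternative chosen after seeing the data. With thresholds of 1.5-fold and 3-fold it was 3 and 0. The count at least 2-fold lower was 4, and it was 1 with median centring, 2 with quantile normalization, 2 in the authors' table, 1 with normexp without those spots and 1 at 3-fold. Both counts were as in the main scaling with the mean over probes, with no background filter and with outlier spots kept. The members' median ranged from -0.177 (normexp) to 0.209 (median centring). Of the 31 single differences, normexp moved 16, and Cdkn1a besides these, by more than the scanner error. It turned the sign of 10, among them Cdkn1a (-0.502), the 1 past 2-fold. Without the 4 spots it moved 5 and turned 1. Scaling each array otherwise (median, quantile, loess) moved 0 by that much, and centring on the median turned 5 small ones. The added 50 shrinks differences of dim genes by construction. The fit on all spots also raised member signals more on the wild-type array than on the other.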
